A study of Mus musculus with 8 samples.

Results

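The enzymes of glycolysis were followed step by step, from the hexokinases to lactate dehydrogenase, in haematopoietic stem cells (HSCs) of Nupr1-/- mice set against those of wild type mice. The 10 genes Hk1, Hk2, Gpi1, Pfkl, Aldoa, Tpi1, Gapdh, Pgk1, Pkm and Ldha were taken by name and were all found, as 10 of the 11853 distinct gene symbols in the deposited table. Each of them also passed the filter on low values and was tested. Of 21 further enzymes and isozymes listed beside these steps, 13 were in the table and all 13 were tested. The list includes related genes with another activity, such as Pgam5 and Ldhd, described below.

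HSCs are the rare bone marrow cells from which all blood lineages are renewed. They were sorted from bone marrow nucleated cells of 4 Nupr1-/- mice and 4 wild type mice, all of C57BL/6 strain, and the polyadenylated RNA of each mouse made 1 library. No treatment, age or sex is given in the labels, and neither the deleted part of Nupr1 nor the sorting gate is described in the sources used here. Nupr1 encodes a small stress-induced nuclear protein, and the study's title ties it to the quiescence of HSCs and to p53.

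Glycolysis turns glucose into pyruvate in the cytosol. Its first steps spend ATP to phosphorylate glucose and split the sugar into triose phosphates, and its later steps return ATP and NADH. Lactate dehydrogenase then converts pyruvate to lactate and restores NAD. Resting HSCs are known for their reliance on glycolysis in a bone marrow niche that is low in oxygen, and the hypoxia-inducible factor HIF is a well-known activator of many of these genes. Several steps can be carried out by more than 1 gene, and such isozymes differ in tissue and in regulation.

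The libraries held 2296101 to 4769401 reads on the genes of the table. Nupr1 itself was read in every library and did not separate the groups (168 ± 35.0 normalised reads in Nupr1-/- HSCs and 246 ± 80.2 in wild type HSCs, SD, n = 4 each, limma adjusted p = 0.433), so the genotype rests on the labels. Trp53, which encodes p53, was lower in the libraries labelled Nupr1-/- (log2 change -2.49, limma adjusted p = 0.0016). The HSC genes Mecom, Hlf, Procr, Slamf1 and Kit were present in every library, with limma adjusted p of 0.105 to 0.904 between the groups. Procr, at 346 to 459 normalised reads in Nupr1-/- libraries and 516 to 687 in wild type libraries, did not overlap (log2 change -0.55), and Mecom and Hlf had log2 changes of -0.79 and -0.46. Wild type library 2 stood apart on the first principal component, at 127 against -36.9 to -0.81 for the other 7 libraries, and values without it are given below. On the second component it lay at 21.8, beside the Nupr1-/- libraries at 24.1 to 61.3. Wild type libraries 1, 3 and 4 were at -67.3 to -45.7 there. Fits without library 2 thus drop the wild type library nearest the Nupr1-/- libraries on that component. A pass gained only without it is given as a dependence on that library. Xist, the RNA of the inactive X chromosome, had 107 to 159 normalised reads in the Nupr1-/- libraries and 0 to 11.8 in the wild type libraries, so genotype and this sign of sex cannot be told apart. Genes rich in G and C bases were higher in the Nupr1-/- libraries relative to the wild type libraries. Each gene's deviation from its mean over the 8 libraries was correlated (Spearman) with transcript GC across 10892 genes. The coefficient was 0.15 to 0.301 in the Nupr1-/- libraries and -0.303 to -0.138 in the wild type libraries. Since that mean spans both groups, the opposite signs are partly built in. In bulk RNA, a change in the share of cells that express a gene and a change in RNA per cell cannot be told apart.

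Across the pathway, 4 of the 10 enzymes rose in Nupr1-/- HSCs, 1 fell and 5 did not pass the test. Gpi1, Aldoa, Tpi1 and Gapdh, which lie next to one another in the middle of the pathway apart from the phosphofructokinase step, rose by 1.78-fold to 2.18-fold. Hk2, a hexokinase at the entry, fell 2.76-fold. Over all 10989 genes tested, 3.8% passed in either direction (limma, Benjamini-Hochberg adjusted p under 0.05), 1.68% as higher and 2.12% as lower in Nupr1-/- HSCs. The log2 change was above 0 for 9 of the 10 enzymes with a median of 0.76, against 51.3% of all genes and a median of 0.03. The 10 were chosen with earlier results of these data known and leave out the mutase and enolase steps. Their contrasts with all genes are therefore a description and not a test of the pathway. Of the 13 other enzymes and isozymes 0 passed, with a median of 0.15. Groups did not overlap for 5 enzymes that were higher and 1 that was lower in Nupr1-/- HSCs, and over all genes this held for 5.78% and 5.91% (11.7% in all). Before adjustment, 7 of the 10 enzymes and 19.7% of all genes had a limma p under 0.05. DESeq2 on the recovered reads passed 6 of the enzymes and 7.48% of all genes, and edgeR 5 and 3.05%. With the GC and length trend of each library removed, 0 of the 10 enzymes and 0.294% of all genes passed the limma test, and 5 of the 10 enzymes and 12.7% of all genes had an unadjusted p under 0.05. The median log2 change was then 0.31 for the enzymes and 0.01 for all genes. Removing the trend and leaving out wild type library 2, an alternative added after seeing the data, 3 enzymes (Hk2, Gpi1 and Aldoa) and 2.26% of all genes passed. Without wild type library 2 alone 7 enzymes and 8.15% of all genes passed, and without Nupr1-/- library 2 alone 0 enzymes and 0.444% did.

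**Figure D1:**
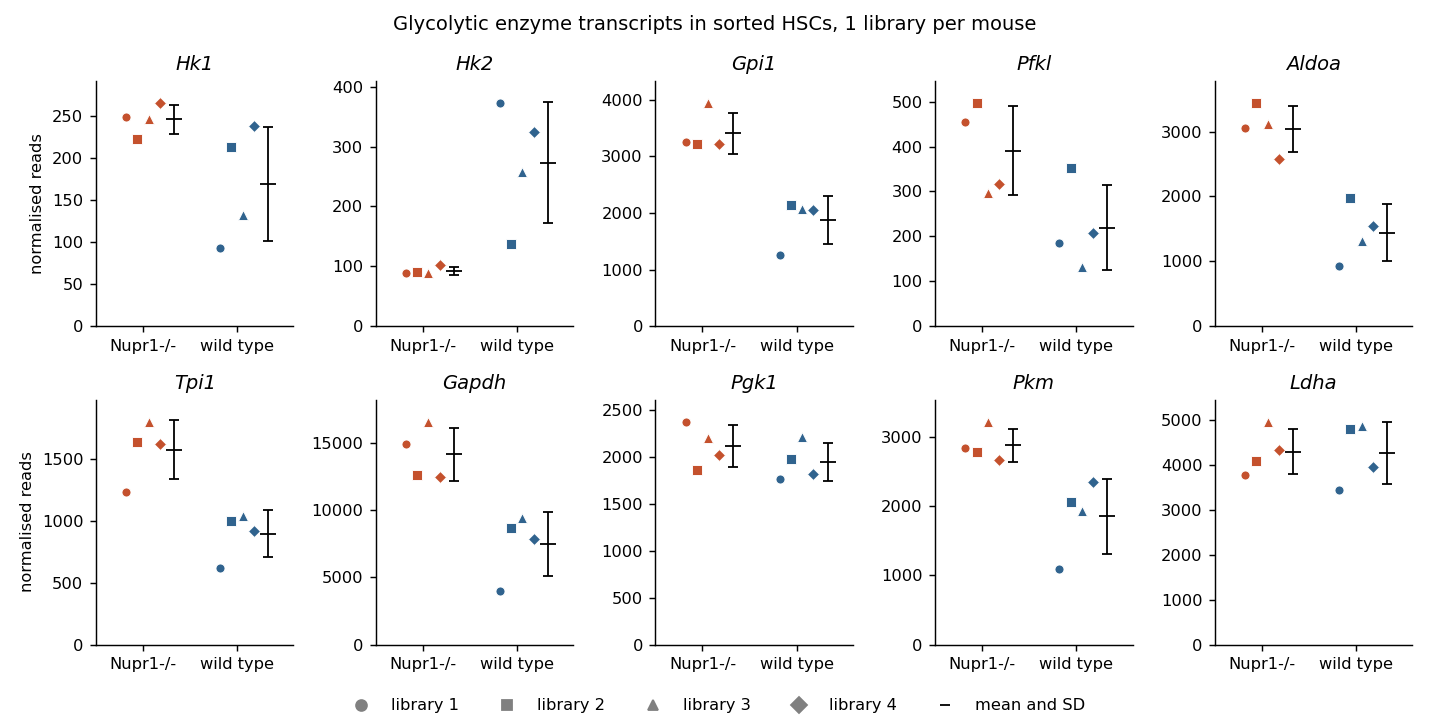
Normalised reads (y axis, starting at 0) of each of the 10 glycolytic enzymes in the 4 Nupr1-/- libraries (left) and the 4 wild type libraries (right), 1 point per mouse with the group mean and SD. Gpi1, Aldoa, Tpi1, Gapdh and Pkm have all Nupr1-/- points above all wild type points, Hk2 has them all below, and Ldha and Pgk1 overlap.

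Hexokinases trap glucose in the cell as glucose phosphate. Hk1, the broadly expressed form, had 249, 223, 247 and 266 normalised reads in the Nupr1-/- libraries, against 92.6, 214, 133 and 238 in the wild type libraries. The Nupr1-/- values lay close together and wild type library 4 reached into their range, so the groups overlapped. The difference did not pass (log2 change 0.63 ± 0.34 SE, limma adjusted p = 0.305). After removal of the GC and length trend the log2 change of Hk1 was 0.18 (limma adjusted p = 0.866). Hk2, the inducible form known from muscle, fat and proliferating cells and bound to mitochondria, had 89.0, 89.8, 88.4 and 102 normalised reads in the Nupr1-/- libraries, against 373, 138, 258 and 324 in the wild type libraries. Every Nupr1-/- library was below every wild type library, and the closest wild type value was that of library 2. Hk2 fell in Nupr1-/- HSCs (92.2 ± 6.44 against 273 ± 102 normalised reads, SD, n = 4 each), with a log2 change of -1.47 ± 0.36 (SE) and a limma adjusted p of 0.0341. With the GC and length trend removed the Hk2 difference was as large (log2 change -1.65, limma adjusted p = 0.0590), and it passed when wild type library 2 was also left out (log2 change -1.91, adjusted p = 0.0045). Without any single library other than wild type library 2 the adjusted p of Hk2 was 0.0573 to 0.106, and without wild type library 2 it was 0.0034. The transcript of Hk2 has 51.9% G and C, and the 1094 tested genes within 1 percentage point of it had a median log2 change of 0.22, opposite in sign to that of Hk2.

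The share of Hk1 in the pair was compared next. Per kilobase of exon, Hk1 made up 66.2%, 63.5%, 66.2% and 64.6% of the pair in the Nupr1-/- libraries, against 14.8%, 52.0%, 26.4% and 33.9% in the wild type libraries. Every Nupr1-/- library was above every wild type library, with Hk1 as the larger share in all 4 Nupr1-/- libraries and in wild type library 2 alone among the wild type. The means were 65.1% ± 1.33 in Nupr1-/- HSCs and 31.8% ± 15.6 in wild type HSCs (SD, n = 4 each), a difference of 33.3 percentage points. A two-sided exact permutation test gave p = 0.0286, the smallest that 70 assignments of 4 against 4 allow, and 0.0857 after adjustment over the 3 isozyme shares compared, so the difference did not pass. Without wild type library 2 the difference was 40.1 points. The joined exons span 8532 bases for Hk1 and 5969 for Hk2, and the longest transcripts 4278 and 5513 bases. The size of each share depends on this choice of length. By longest transcript, an alternative that was not planned, the difference was 32.6 points. With 3 shares compared, a single share at the smallest p cannot pass the adjustment, so this test could not call the Hk1 share by itself. The other hexokinase activities did not pass. Hk3, a form known from myeloid cells, had 65.0 ± 16.1 normalised reads in Nupr1-/- HSCs and 74.0 ± 45.0 in wild type HSCs (SD, n = 4 each, limma adjusted p = 0.972). Adpgk, which uses ADP in place of ATP, had 103 ± 62.6 and 162 ± 103 in the same order (limma adjusted p = 0.575). Per kilobase of exon, Hk3 had means of 17.6 and 20.1 and Adpgk of 10.7 and 16.8 in the same order. Hk1 had 28.9 and 19.8 and Hk2 15.5 and 45.8. The share of Hk1 in the pair is therefore not its share of the whole step.

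Gpi1 encodes glucose phosphate isomerase, which turns glucose phosphate into fructose phosphate. It had 3252, 3223, 3941 and 3215 normalised reads in the Nupr1-/- libraries, against 1251, 2133, 2069.9 and 2051 in the wild type libraries. The lowest Nupr1-/- value was above the highest wild type value by a wide margin, and wild type library 1 lay below the other wild type libraries. Gpi1 rose in Nupr1-/- HSCs, to 3408 ± 356 against 1876 ± 418 normalised reads (SD, n = 4 each), a log2 change of 0.89 ± 0.18 (SE) with a limma adjusted p of 0.0174. Left out in turn, Nupr1-/- libraries 1, 2 and 3 took the adjusted p to 0.0571, 0.0548 and 0.0556, and the other 5 libraries left it under the threshold. With the GC and length trend removed the log2 change was 0.67 (limma adjusted p = 0.143), and without wild type library 2 as well it was 0.77 (adjusted p = 0.0258).

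Phosphofructokinase commits the sugar to glycolysis and is the main control point of the pathway. Its liver-type subunit Pfkl had 454, 496, 296 and 317 normalised reads in the Nupr1-/- libraries, against 186, 352, 131 and 207 in the wild type libraries. Wild type library 2 lay within the Nupr1-/- range and the other wild type libraries lay below it. The mean was 391 ± 99.2 in Nupr1-/- HSCs and 219 ± 94.3 in wild type HSCs (SD, n = 4 each), a log2 change of 0.89 ± 0.32 (SE) that did not pass (limma adjusted p = 0.126). Without wild type library 2 the log2 change was 1.15 and the limma adjusted p 0.0214. With the GC and length trend removed the log2 change of Pfkl was 0.41 (limma adjusted p = 0.638), and without wild type library 2 as well it was 0.68 (adjusted p = 0.237). The muscle-type subunit Pfkm had 230 ± 86.4 normalised reads in Nupr1-/- HSCs and 159 ± 38.3 in wild type HSCs, and the platelet-type subunit Pfkp had 272 ± 82.5 and 219 ± 82.5 in the same order (SD, n = 4 each). Neither passed the limma test (adjusted p = 0.440 for Pfkm and 0.602 for Pfkp). Per kilobase of exon, Pfkl was 39.6% ± 3.77 of the subunit total in Nupr1-/- HSCs and 33.5% ± 13.3 in wild type HSCs (two-sided exact permutation p = 0.40, adjusted 0.600 over 3 shares).

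Aldolase splits fructose bisphosphate into a pair of triose phosphates. Aldoa, its broadly expressed form, had 3051, 3439, 3117 and 2573 normalised reads in the Nupr1-/- libraries, against 927, 1973, 1319 and 1547 in the wild type libraries. The groups were well separated, with wild type library 2 the nearest to the Nupr1-/- range. Aldoa rose in Nupr1-/- HSCs (3045 ± 357 against 1442 ± 437 normalised reads, SD, n = 4 each) by 1.12 ± 0.20 (SE) on the log2 scale, with a limma adjusted p of 0.0086, the smallest of the 10 enzymes. It stayed under the threshold without each library in turn except Nupr1-/- library 2, where the adjusted p was 0.0505. The Aldoa transcript is 56.9% G and C, and genes within 1 percentage point of that had a median log2 change of 0.45. With the GC and length trend removed the log2 change of Aldoa was 0.69 (limma adjusted p = 0.152), and without wild type library 2 as well it was 0.88 (adjusted p = 0.0081). Aldoc, the form known from brain, had 207 ± 89.9 normalised reads in Nupr1-/- HSCs and 122 ± 60.1 in wild type HSCs (SD, n = 4 each, limma adjusted p = 0.349). Aldoa lies on mouse chromosome 7 (mm10 chr7:126795234-126800751, minus strand), 164 kb from Nupr1 on the same strand. Gpi1 and Ldha lie on the same chromosome, both far from Nupr1. The sources used here do not say in which strain the Nupr1 allele was made.

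Tpi1 encodes triose phosphate isomerase, which interconverts the triose phosphates so that both can go on. It had 1235, 1632, 1799 and 1621 normalised reads in the Nupr1-/- libraries, against 618, 999, 1041 and 919 in the wild type libraries. Nupr1-/- library 1 was the lowest of its group and still above every wild type library. Tpi1 rose in Nupr1-/- HSCs (1572 ± 239 against 894 ± 191 normalised reads, SD, n = 4 each), with a log2 change of 0.83 ± 0.20 (SE) and a limma adjusted p of 0.0319. Without any single library other than wild type library 2 the adjusted p was 0.0529 to 0.0942, and without wild type library 2 it was 0.0110. The log2 change with the GC and length trend removed was 0.56 (limma adjusted p = 0.274).

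Gapdh oxidises the triose phosphate and makes the NADH that lactate dehydrogenase later uses. It was the most abundant of the enzymes, with 14891, 12635, 16561 and 12489.9 normalised reads in the Nupr1-/- libraries, against 4006, 8652, 9401 and 7832 in the wild type libraries. All Nupr1-/- values were above all wild type values, and wild type library 1 was far below its group. Gapdh rose in Nupr1-/- HSCs (14144 ± 1950.4 against 7473 ± 2398 normalised reads, SD, n = 4 each) by 1.98-fold, a log2 change of 0.98 ± 0.21 (SE) with a limma adjusted p of 0.0230. Left out in turn, Nupr1-/- libraries 1, 2 and 3 took the adjusted p to 0.0672, 0.0576 and 0.0768. After removal of the GC and length trend the log2 change was 0.73 (limma adjusted p = 0.171). Gapdh has 180 other annotated genes with at least 90% identity to its transcript over at least 200 bases, so its count is uncertain to the extent that the authors' counting split or dropped shared reads. Of these, 4 were in the table: Gm3839, Gm5069 and Gm7293 had at most 36.2 normalised reads in any library, and Peli2 at most 98.1.

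Pgk1 encodes phosphoglycerate kinase, the first step that returns ATP. Its normalised reads were 2377, 1860.4, 2209 and 2018 in the Nupr1-/- libraries, against 1762, 1975, 2215 and 1822 in the wild type libraries. The groups lay over one another, with means of 2116 ± 225 in Nupr1-/- HSCs and 1944 ± 202 in wild type HSCs (SD, n = 4 each). The log2 change was 0.12 with a 95% interval of -0.21 to 0.46 (limma adjusted p = 0.715), so a change of the size seen for Gapdh lay outside the interval of Pgk1. Pgk1 is on the X chromosome, and the Xist difference between the groups given above stands beside this value. It is also the enzyme gene with the lowest transcript GC, 49.7%, against 51.5% to 57.7% for the other 9.

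The phosphoglycerate mutase and enolase steps follow. Pgam1, the main mutase outside muscle, had 919 ± 56.3 normalised reads in Nupr1-/- HSCs and 941 ± 201 in wild type HSCs (SD, n = 4 each, limma adjusted p = 0.985), a log2 change of -0.01 with a 95% interval of -0.42 to 0.40. Pgam5, a mitochondrial phosphatase of the same family, had a log2 change of 0.09, and Bpgm, which makes the bisphosphoglycerate of red cells, one of 0.15. Eno1, the broadly expressed enolase, had 1562, 1798, 1324 and 1581 normalised reads in the Nupr1-/- libraries, against 788, 1417, 1203 and 1118 in the wild type libraries. Wild type library 2 reached into the Nupr1-/- range, and the log2 change of 0.49 ± 0.20 (SE) did not pass (limma adjusted p = 0.169). After removal of the GC and length trend the log2 change of Eno1 was 0.01 (limma adjusted p = 0.984). The neuronal enolase Eno2 had 16.4 ± 10.53 normalised reads in Nupr1-/- HSCs and 15.3 ± 9.54 in wild type HSCs, and the muscle enolase Eno3 had 107 ± 55.8 and 63.7 ± 35.3 in the same order (SD, n = 4 each), with limma adjusted p of 0.968 and 0.503.

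Pkm encodes the muscle-type pyruvate kinase, whose alternative exons give the M1 and M2 forms that a gene-level count does not separate. It had 2836, 2786, 3217 and 2672 normalised reads in the Nupr1-/- libraries, against 1085, 2052, 1925 and 2345 in the wild type libraries. The groups did not overlap, and wild type library 1 lay well below the others. The mean was 2878 ± 236 in Nupr1-/- HSCs and 1852 ± 540.5 in wild type HSCs (SD, n = 4 each), a log2 change of 0.69 ± 0.20 (SE) that missed the threshold (limma adjusted p = 0.0671). Pkm passed without wild type library 2 (adjusted p = 0.0269), and with DESeq2 run on the recovered reads (adjusted p = 0.0397). Its transcript has the highest GC content of the 10, 57.7%, genes of like GC had a median log2 change of 0.47, and with the GC and length trend removed the log2 change of Pkm was 0.20 (limma adjusted p = 0.710).

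Ldha encodes the main lactate dehydrogenase subunit of glycolytic tissue. It had 3786, 4077, 4959 and 4337 normalised reads in the Nupr1-/- libraries, against 3452, 4789.9, 4871 and 3955 in the wild type libraries. The groups overlapped over nearly their whole range, with means of 4289.8 ± 499.9 in Nupr1-/- HSCs and 4267 ± 683 in wild type HSCs (SD, n = 4 each). The log2 change was 0.01 with a 95% interval of -0.31 to 0.34 (limma adjusted p = 0.970), which as a fold runs from 0.806 to 1.27. Once the GC and length trend was removed it was -0.15, with an interval of -0.50 to 0.20. Ldhb, the heart-type subunit, had 871 ± 242 normalised reads in Nupr1-/- HSCs and 781 ± 89.7 in wild type HSCs (SD, n = 4 each, limma adjusted p = 0.817). Per kilobase of exon, Ldha was 70.2% ± 7.68 of the pair in Nupr1-/- HSCs and 71.8% ± 5.57 in wild type HSCs (two-sided exact permutation p = 0.80, adjusted 0.80 over 3 shares). Ldhd, a mitochondrial enzyme that acts on D-lactate, had 171 ± 76.6 and 77.6 ± 30.7 normalised reads in Nupr1-/- and wild type HSCs (SD, n = 4 each, limma adjusted p = 0.207). Of all 13 other enzymes and isozymes, 0 passed the limma test, 2 (Eno1 and Ldhd) had an unadjusted p under 0.05, and DESeq2 and edgeR passed 0. Their median log2 change was 0.15.

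**Figure D2:**
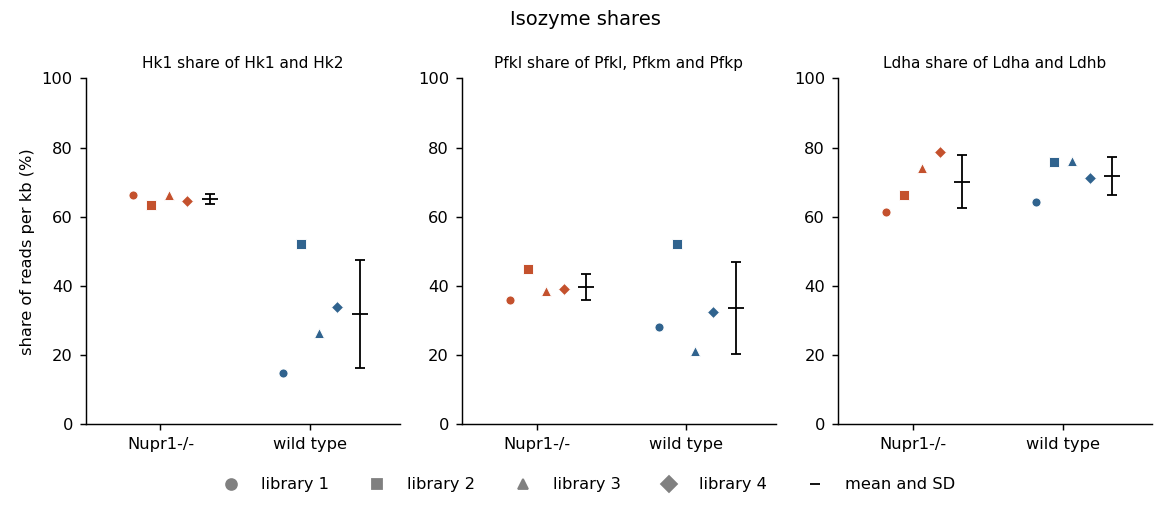
Share of Hk1 in Hk1 and Hk2, of Pfkl in Pfkl, Pfkm and Pfkp, and of Ldha in Ldha and Ldhb. The y axis gives percent of the summed level per kilobase of exon of the genes named. The 4 Nupr1-/- libraries are on the left and the 4 wild type libraries on the right, 1 point per mouse with the group mean and SD. The Hk1 share is 63.5% to 66.2% in Nupr1-/- libraries and 14.8% to 52.0% in wild type libraries, while the Pfkl and Ldha shares overlap.

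**Figure D3:**
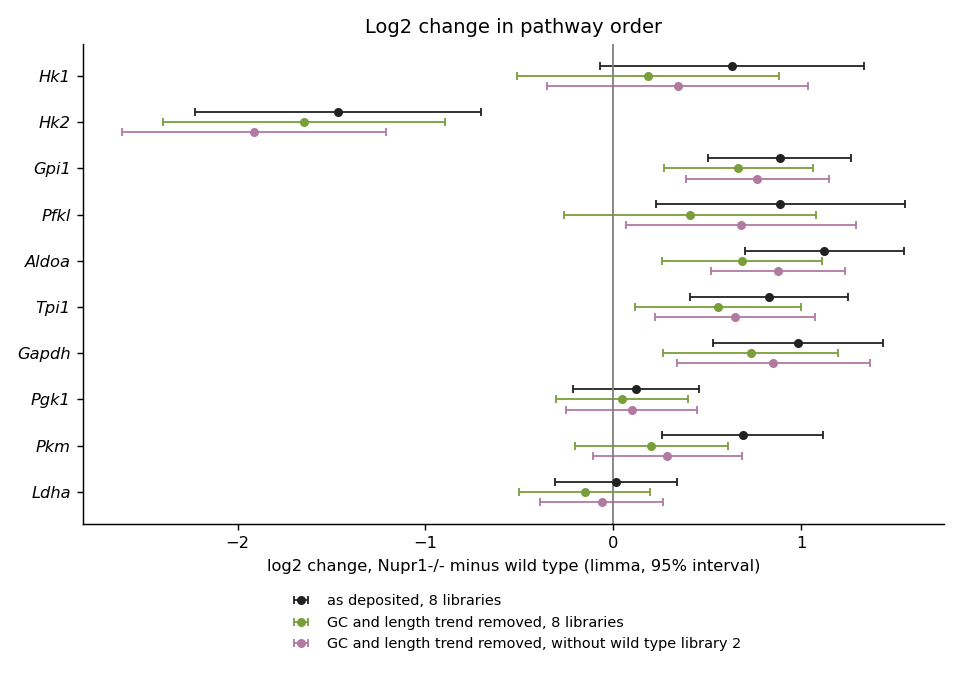
Log2 change (x axis, Nupr1-/- minus wild type, on the scale of log2 of the normalised value plus 1) of the 10 enzymes in pathway order, as points with 95% intervals from limma, for the deposited values, with the GC and length trend removed, and with the trend removed and wild type library 2 left out. Intervals of Gpi1, Aldoa, Tpi1, Gapdh and Hk2 stay clear of 0 in all 3 fits. The intervals are per gene and not adjusted for the number of genes tested. After adjustment 0 of the 10 enzymes passed with the trend removed. Only Hk2, Gpi1 and Aldoa passed with wild type library 2 also left out. The values of Hk1, Gpi1, Pfkl, Aldoa, Tpi1, Gapdh, Pgk1 and Pkm move toward 0 when the trend is removed. Hk2 then moves away from 0 and Ldha turns below 0.

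Levels per kilobase of exon allow the enzymes to be ordered within a group. In Nupr1-/- HSCs Gapdh was first at 3422 normalised reads per kilobase, followed by Ldha at 1296, Aldoa at 1046 and Pgk1 at 943. Ldha, Aldoa and Pgk1 overlapped from 1 neighbour to the next, as did Pkm, Tpi1 and Gpi1 after them at 575, 571 and 528. Pfkl at 58.5, Hk1 at 28.9 and Hk2 at 15.5 were lower, and these 3 did not overlap. In wild type HSCs Gapdh at 1808 and Ldha at 1289 overlapped, and Pgk1 at 866 did not overlap Ldha above it or Aldoa at 495 after it, though its range met that of Gapdh. Aldoa, Pkm at 370, Tpi1 at 325 and Gpi1 at 291 overlapped from neighbour to neighbour, as did Hk2 at 45.8, Pfkl at 32.8 and Hk1 at 19.8. By this measure Aldoa stood before Pgk1 in Nupr1-/- HSCs, though overlapping it, and after it in wild type HSCs. Hk2 was the last of the 10 in Nupr1-/- HSCs. The length used joins all annotated exons of a gene and can exceed its longest transcript by far. It is 2911 against 1549 bases for Aldoa, 5001 against 2432 for Pkm and 2244 against 1825 for Pgk1. The ranks and overlaps among neighbours depend on this choice, and no order by transcript length is given. Among the 10, the hexokinases and Pfkl had the lowest levels per kilobase in both groups.

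**Figure D4:**
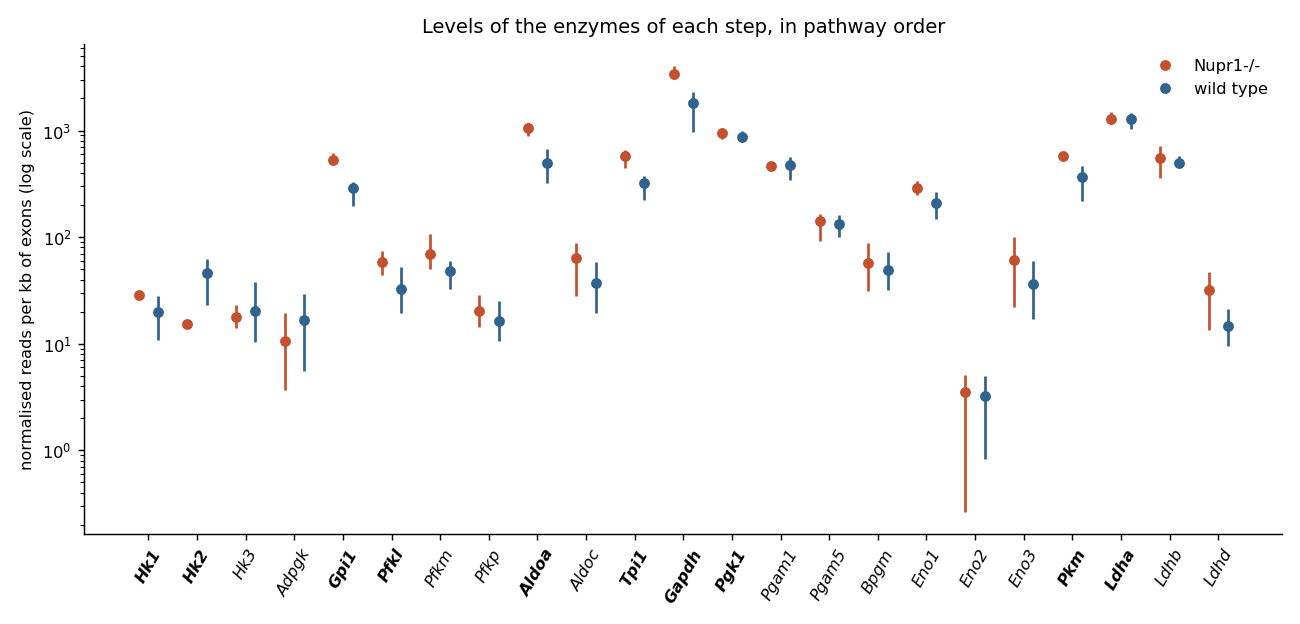
Level per kilobase of exon (normalised reads per kilobase, log axis) of the 10 enzymes (bold) and the 13 other enzymes and isozymes in pathway order, with Nupr1-/- left of wild type at each gene. Points are means of 4 libraries and lines run from the lowest to the highest library, and of the 10 Gapdh is highest, at a mean of 3422 in Nupr1-/- and 1808 in wild type HSCs, and Hk1, Hk2 and Pfkl are lowest, at means of 15.5 to 58.5 in Nupr1-/- and 19.8 to 45.8 in wild type HSCs.

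Together the 10 enzymes took 0.962%, 0.912%, 1.04% and 0.909% of the reads in the Nupr1-/- libraries, against 0.414%, 0.707%, 0.688% and 0.625% in the wild type libraries. Gapdh alone took 0.445%, 0.378%, 0.473% and 0.383% in the Nupr1-/- libraries, against 0.121%, 0.263%, 0.277% and 0.230% in the wild type libraries. All Nupr1-/- libraries were above all wild type libraries in both measures. Wild type library 1 was the lowest of the 8 libraries for all of the 10 enzymes except Hk2 and Pfkl. The fits without it gave log2 changes of 0.70 for Gpi1, 0.93 for Aldoa, 0.66 for Tpi1 and 0.71 for Gapdh, of which Tpi1 no longer passed (limma adjusted p = 0.0772).

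Markers of other cell types had these levels. Of the 12 megakaryocyte and platelet markers listed, 9 were in the table and 4 of these (Itga2b, Gp9, Vwf and Pf4) rose in Nupr1-/- HSCs, against 1.68% of all genes. The 9 summed to 2082 to 2604 normalised reads in Nupr1-/- libraries and 957 to 1308 in wild type libraries. Gp1bb was at 0 in at least 1 library, and Ppbp, Gp6 and Tubb1 were not in the table. The 10 markers of cycling cells summed to 1198 to 3903 in Nupr1-/- libraries and 721 to 2939 in wild type libraries. Of the erythroid markers 6 were in the table and 4 were tested, of which Klf1 rose. Klf1, Hba-a1 and Hbb-bs were each at 0 in at least 1 library, and the 6 summed to 364 to 542 in Nupr1-/- libraries and 240.2 to 571 in wild type libraries. The 1 neutrophil marker in the table, Prtn3, had 847 to 1445 normalised reads in Nupr1-/- libraries (median 1216) and 983 to 2908 in wild type libraries (median 1919). The 2 B cell markers summed to 213 to 277 in Nupr1-/- libraries (median 233) and 239.5 to 893 in wild type libraries (median 561). Monocyte and macrophage markers (4) summed to 1421 to 2630.2 in Nupr1-/- libraries and 1624 to 3144 in wild type libraries, and T and NK cell markers (3) to 185 to 504 and 202 to 636 in the same order. The part of other cell types in the enzyme results was not tested.

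Reads shared with neighbouring or similar genes limit some of the enzymes, since the library kit does not mark strand. In the GENCODE M21 annotation (mm10), exons of Gpi1 overlap the long non-coding RNA Gm26762 on the opposite strand by 741 bases, those of Hk1 overlap the antisense RNA Hk1os by 157 bases, and those of Pkm overlap Gm49759 on the same strand by 767 bases. Aldoa, Tpi1 and Gapdh overlap a neighbour by 25 to 68 bases, and Hk2, Pfkl, Pgk1 and Ldha overlap none. At the same threshold of 90% identity over 200 bases, Ldha had 13 similar annotated genes, Pkm 9, Aldoa 6, Pgk1 4, and Gpi1 and Tpi1 2 each, none of them in the table, and Hk1, Hk2 and Pfkl had 0.

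Promoter sequences are shown for the enzymes that mark the range of the results: Hk2, which fell, Gpi1 and Aldoa, which rose, and Ldha, which did not pass the test. Each is the RefSeq window from 250 bases before to 50 bases after a gene start (build GRCm38.p6), written along the gene's own strand. Capitals mark the HIF core letters ACGTG or GCGTG on either strand. Where a gene has several windows, the one with the most matches was taken, a choice made after the matches were seen. The windows are chr6:82774405-82774704 (minus strand) for Hk2, chr7:34230287-34230586 (minus) for Gpi1, chr7:126799205-126799504 (minus) for Aldoa and chr7:46845554-46845853 (plus) for Ldha.
Hk2: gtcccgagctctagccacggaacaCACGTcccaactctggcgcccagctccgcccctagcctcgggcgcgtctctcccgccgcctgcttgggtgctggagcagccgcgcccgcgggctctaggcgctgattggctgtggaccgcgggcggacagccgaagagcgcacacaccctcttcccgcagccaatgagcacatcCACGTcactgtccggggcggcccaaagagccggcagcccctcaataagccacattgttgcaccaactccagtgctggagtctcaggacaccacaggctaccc
Gpi1: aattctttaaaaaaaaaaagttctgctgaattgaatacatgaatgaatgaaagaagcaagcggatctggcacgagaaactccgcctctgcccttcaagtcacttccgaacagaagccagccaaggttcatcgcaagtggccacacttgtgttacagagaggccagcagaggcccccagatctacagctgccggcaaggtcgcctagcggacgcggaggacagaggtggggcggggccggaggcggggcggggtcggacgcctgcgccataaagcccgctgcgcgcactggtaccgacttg
Aldoa: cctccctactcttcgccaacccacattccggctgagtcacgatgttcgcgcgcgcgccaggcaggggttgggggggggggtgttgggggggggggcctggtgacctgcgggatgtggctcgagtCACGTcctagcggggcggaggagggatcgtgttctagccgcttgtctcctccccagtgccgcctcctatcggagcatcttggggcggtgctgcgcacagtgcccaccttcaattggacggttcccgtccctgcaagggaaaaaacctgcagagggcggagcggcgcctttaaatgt
Ldha: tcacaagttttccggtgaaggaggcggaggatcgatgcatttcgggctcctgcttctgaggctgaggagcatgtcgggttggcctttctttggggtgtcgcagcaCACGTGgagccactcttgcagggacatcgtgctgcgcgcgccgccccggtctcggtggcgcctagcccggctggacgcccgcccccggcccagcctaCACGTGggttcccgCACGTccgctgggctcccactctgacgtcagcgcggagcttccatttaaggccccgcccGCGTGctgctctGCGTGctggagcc
The Ldha window holds 7 matches, of which 4 lie in the 2 copies of the palindromic E-box CACGTG, since each such copy reads as ACGTG on both strands. The Hk2 window holds 2 matches, the Aldoa window 1 and the Gpi1 window 0. Over the 10 enzymes, 8 had at least 1 HIF core match in some window (Hk1 5, Gapdh 3, Pgk1 and Pkm 2 each and Pfkl 1 beside those shown) and Tpi1, like Gpi1, had 0. The same letters occur in 43.8% of all 32851 RefSeq windows and in at least 1 window of 69.4% of the 8308 tested genes that have one. A GC box (GGGCGG, either strand) was found for 8 of the 10 enzymes and for 70.4% of the tested genes, and the E-box CACGTG for 1 of the 10 and for 12.1%. These matches are letters in a window and carry no measurement of binding. The 4 enzymes that rose held 1 (Aldoa), 3 (Gapdh), 0 (Gpi1) and 0 (Tpi1) matches.

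Genes that feed or drain the pathway were described from lists chosen with earlier results of these data known. Over all genes, 3.8% passed the limma test and 19.7% had an unadjusted limma p under 0.05. DESeq2 passed 7.48% of all genes and edgeR 3.05%. These shares stand beside the counts here and in the lists below. The lists are small, and their counts are a description. Of 21 tested genes for glucose and lactate transport, fructose bisphosphate control and entry of pyruvate into mitochondria, 0 passed the limma test, with a median log2 change of 0.05. Of these, 3 had an unadjusted p under 0.05, and DESeq2 and edgeR passed 0. The glucose transporter Slc2a3 had 845 ± 172 normalised reads in Nupr1-/- HSCs and 509 ± 202 in wild type HSCs (SD, n = 4 each, limma adjusted p = 0.127). The transporter Slc2a8 had 88.7 ± 39.8 and 39.2 ± 48.3 in the same order (limma adjusted p = 0.215). Among 15 transcriptional regulators of glycolysis, including the HIF subunits and their hydroxylases, 1 fell and 0 rose in the limma test, with a median of -0.03. DESeq2 passed 2 of them and edgeR 0, and 3 had an unadjusted limma p under 0.05. The gene that fell was Usf1, which encodes an E-box binding factor, at 2.92, 21.2, 0 and 19.4 normalised reads in the Nupr1-/- libraries against 57.1, 124, 66.8 and 150 in the wild type libraries. All Nupr1-/- libraries were below all wild type libraries, but these are low counts, and the limma adjusted p of 0.0396 was above the threshold without any single library except Nupr1-/- library 4 or wild type library 2 (0.0576 to 0.121). It was 0.0718 with edgeR, 0.107 with voom and 0.0690 with the GC and length trend removed. Egln2, a HIF prolyl hydroxylase, had 419 ± 79.6 and 218 ± 65.2 normalised reads in Nupr1-/- and wild type HSCs (SD, n = 4 each, limma adjusted p = 0.0639). It passed with DESeq2 (adjusted p = 0.0257) and in limma with a value of at least 10 required in all 8 libraries (0.0451). Removing the GC and length trend took the log2 change of Egln2 from 0.97 to 0.40 (limma adjusted p = 0.598).

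Of the HIF targets outside glycolysis, 0 of 13 tested passed the limma test, 1 had an unadjusted p under 0.05, DESeq2 passed 1 and edgeR 0, and the median log2 change was -0.15. Ero1l, an oxidase of the endoplasmic reticulum, had 90.03 ± 19.4 normalised reads in Nupr1-/- HSCs and 201 ± 73.9 in wild type HSCs (SD, n = 4 each, limma adjusted p = 0.137), and the histone demethylase gene Kdm3a had 208 ± 56.8 and 284 ± 39.8 in the same order (adjusted p = 0.377). Ero1l passed in limma without wild type library 2 (adjusted p = 0.0226) and with DESeq2 (0.0495). Its log2 change of -1.08 became -0.61 with the GC and length trend removed (limma adjusted p = 0.532). In the pentose phosphate branch 0 of 8 passed the limma test, 4 had an unadjusted p under 0.05, DESeq2 passed 1 and edgeR 0, and the median was 0.38. Pgls, its lactonase, had 809 ± 119 normalised reads in Nupr1-/- HSCs and 483 ± 186 in wild type HSCs, and the epimerase Rpe had 43.0 ± 21.2 and 137 ± 45.1 in the same order (SD, n = 4 each), with limma adjusted p of 0.110 and 0.0709. Rpe passed in limma without wild type library 2 (adjusted p = 0.0471) or with at least 10 in all 8 libraries (0.0400), and with DESeq2 (0.0208). For Rpe, removal of the GC and length trend took the log2 change from -1.78 to -1.14 (limma adjusted p = 0.384). In the serine, glycerol and hexosamine branches 0 of 8 passed the limma test, 3 had an unadjusted p under 0.05, DESeq2 passed 1 and edgeR 0, and the median was 0.22. Phgdh, which draws phosphoglycerate into serine synthesis, had 1431 ± 244 normalised reads in Nupr1-/- HSCs and 886 ± 174 in wild type HSCs (limma adjusted p = 0.0565), and Gfpt1, the entry to hexosamine synthesis, had 68.0 ± 27.7 and 159.9 ± 39.3 in the same order (adjusted p = 0.107, SD, n = 4 each). The adjusted p of Phgdh was 0.0174 in limma without wild type library 2, 0.0184 with DESeq2, and 0.0369 to 0.0497 in limma with upper quartile scaling, an added constant of 5 or at least 10 in all 8 libraries. The log2 change of Phgdh fell from 0.70 to 0.23 once the GC and length trend was removed (limma adjusted p = 0.678).

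Of the 4 gluconeogenesis genes tested, 1 rose, against 1.68% of all genes. It was Pck2, the mitochondrial phosphoenolpyruvate carboxykinase, with 666, 754, 581 and 619 normalised reads in the Nupr1-/- libraries against 252, 294, 310.1 and 302 in the wild type libraries. The lowest Nupr1-/- value was far above the highest wild type value. Its log2 change was 1.17 ± 0.22 (SE), with a limma adjusted p of 0.0109 that rose to 0.0529 without Nupr1-/- library 2, and with the GC and length trend removed the log2 change was 1.02 (adjusted p = 0.0603). Pcx, the pyruvate carboxylase, was listed at 0 in 3 of the 4 wild type libraries and at 10.97 normalised reads in library 3, against a mean of 49.2 ± 27.7 (SD, n = 4) in Nupr1-/- HSCs (limma adjusted p = 0.0516). Its adjusted p was 0.0402 in limma without wild type library 2, 0.0349 without the filter, 0.0321 with an added constant of 5, and 0.0142 with DESeq2. The log2 change of Pcx was 4.54, and 4.04 with the GC and length trend removed (limma adjusted p = 0.172). In glycogen and hexose metabolism 1 of 15 tested genes rose, against 1.68% of all genes, with a median log2 change of 0.30. It was Pygb, the brain-type glycogen phosphorylase, with 236, 388, 248 and 276 normalised reads in the Nupr1-/- libraries against 86.3, 35.5, 115 and 170.1 in the wild type libraries. Its log2 change was 1.66 ± 0.42 (SE, limma adjusted p = 0.0358), and the adjusted p was 0.0607 to 0.120 without any single library except wild type libraries 2 and 4. It was 0.0584 with edgeR and 0.178 with the GC and length trend removed. The galactokinase gene Galk1 had 311 ± 136 normalised reads in Nupr1-/- HSCs and 156 ± 128 in wild type HSCs (SD, n = 4 each, limma adjusted p = 0.158), and passed without wild type library 2 (adjusted p = 0.0115). Its log2 change was 1.24, and 0.72 with the GC and length trend removed (limma adjusted p = 0.563).

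The 5 genes outside the pathway whose levels over the 8 libraries were most like the mean of the 10 enzymes, after each was scaled to unit spread on the log2 scale, were Ppp1ca, Zfp276, Rnaseh2a, Stra13 and Bin2. Their Pearson correlations with that mean were 0.993, 0.992, 0.989, 0.982 and 0.982 over the 8 libraries, given as a description of genes picked for being most alike out of all tested. Ppp1ca had 2747 ± 398 normalised reads in Nupr1-/- HSCs and 1649.7 ± 430.2 in wild type HSCs (SD, n = 4 each). The transcripts of the 4 with a value, all but Stra13, had 54.2% to 58.2% G and C, and the libraries also differ in their GC trend as given above.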

How the data were processed

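Polyadenylated RNA from sorted HSCs of 4 Nupr1-/- and 4 wild type mice was reverse transcribed and made into Nextera XT libraries, per the labels' protocols. The submitters' processing notes name bcl2fastq, HISAT2, featureCounts, Subread, DESeq2 and mm10, with no versions. The authors' deposited signal is normalised, though presented as raw. Within each library all values (100%, tolerance 0.001) were whole multiples of a single step, as counts divided by a size factor give, so reads could be recovered. In wild type library 3 the step, 0.997, is so near 1 that recovery rests on low values. No entry had fewer than 3 libraries above 0. Of 11855 entries 1 had no name and was left out of every test (at most 0.0011% of a library's reads).

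The planned edgeR test on raw counts was replaced, since the values are normalised. The test used log2(value + 1). The filter asked for a value of 10 or more in 4 or more libraries, which kept 10989 genes and dropped 865. Groups were tested two-sided in limma 3.58.1 (R 4.3.3, eBayes, trend and robust) with Benjamini-Hochberg adjustment over all genes tested and a threshold of 0.05. Log2 changes are Nupr1-/- minus wild type. Adding 1 understates changes of low genes. The trend on transcript GC and length was removed per library with natural splines of 5 degrees of freedom. edgeR 4.0.16 and DESeq2 1.42.0 were run on recovered reads, as alternatives. Isozyme shares used exact permutation over 70 assignments. Of the 11854 named entries 11719 were matched to GENCODE M21, 456 by an older symbol. Similar transcripts were found with blastn 2.17.0, and promoter windows are RefSeq's. Scripts were tested on simulated data.

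The enzymes, gene lists and tests were chosen with earlier results of these data known. All 10 enzymes and all isozymes in the table are described. From each other list the genes passing were named, or the 2 of smallest p where fewer than 2 passed, and the 5 genes of most similar pattern. The limma p-values set the group difference against the spread between mice, with variances drawn together across genes. The permutation p-values count assignments of libraries to groups. The number of mice, 4 a group, limits the precision. Alternatives were other scalings, filters and added constants, edgeR, DESeq2, voom, the replicate block, the GC and length trend and leaving out each library.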

Additional observations from a re-analysis of the deposited data

Results flagged for a closer look

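Within groups of 4 libraries, 5 of 80 group values had 1 library far from the other 3 by Dixon's criterion, about as many as the 1 in 20 that chance gives. Hk2 was highest in Nupr1-/- library 4, at 102 normalised reads. Gpi1 was highest in Nupr1-/- library 3, at 3941, and lowest in wild type library 1, at 1251. Pgam5 was lowest in Nupr1-/- library 3, at 219. Pcx had 10.97 in wild type library 3 and 0 in the other 3 wild type libraries.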

How the results depend on the processing

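Against 418 genes and 5 enzymes passing, DESeq2 passed 782 genes, the replicate block 277, the GC and length trend removed 32 genes and 0 enzymes, that with the replicate block 25 and 0, and that without wild type library 2 (chosen after seeing the data) 243 and 3. Of the genes passing, 44.3% were higher in Nupr1-/- HSCs, and 21.9% with the trend removed. Leaving out 1 library gave 48 to 883 genes and 0 to 7 enzymes, both lowest without Nupr1-/- library 2 and highest without wild type library 2. The share differences ran from 27.7 to 40.1 points for Hk1, 1.98 to 12.3 for Pfkl and -4.47 to 1.25 for Ldha. Without wild type library 2 the Hk1 and Pfkl shares were both at the smallest p of the exact permutation test, so their adjusted p was 0.0429 by construction, and without a Nupr1-/- library that of Hk1 was 0.171. The sign of the Ldha log2 change turned to -0.153 with the trend removed (with or without the block) and to -0.0621 without wild type library 2 as well, and ran from -0.0822 to 0.0834 with 1 library left out. Voom did not pass Hk2 (adjusted p = 0.0607), and Pkm passed with a value of at least 10 in all 8 libraries (0.0396). Over the 10 enzymes, 176 of 220 alternative values kept direction and side, 34 lost the threshold, 4 gained it and 6 turned sign, all Ldha. The cause was not tested. Replicate numbers did not pair the mice (correlations of deviations -0.06 to 0.01, 0 of 4 Nupr1-/- libraries closest to their own number). Low read totals limit Eno2, Pcx, Slc2a8 and Usf1.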
